A study of Homo sapiens with 18 samples.

Results

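Forkhead genes encode transcription factors that share a winged-helix DNA-binding domain. H3K4me3 and H3K27me3 were examined at 50 protein-coding forkhead genes, from FOXA2 to FOXS1, out of 19675 protein-coding genes with a known strand. Members were chosen by symbol (FOX, a letter from A to S and a number), so no measured value entered the choice. A further gene that meets this naming rule is not analysed here, and FOXL2NB, which carries the prefix but encodes no forkhead domain, was left out. The window of a gene ran from 3 kb upstream of its start to its end on GRCh38, and a gene carried a mark when a deposited peak overlapped that window.

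The cells were V16D, a castration-resistant prostate cancer (CRPC) line derived from LNCaP cells. Both groups had received a lentivector, either the control vector (V16D/CTL) or a vector for overexpression of H19, a long non-coding RNA (V16D/H19), with 3 biological replicates a group. Every replicate was immunoprecipitated for both marks and had an input library of its own, which gives 12 peak lists. The comparison asks how the marks are redistributed when H19 is overexpressed.

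The family spans very different jobs. FOXO factors restrain growth and are driven out of the nucleus by AKT, FOXM1 drives genes of mitosis, and the FOXA factors open chromatin for other regulators in gut-derived tissues such as liver and prostate. Most of the remaining members pattern the embryo and are silent in adult epithelium. H3K4me3 marks the starts of active or poised genes, H3K27me3 is laid down by the repressive PRC2 complex, and promoters of developmental regulators often carry both, a state called bivalent.

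The H3K4me3 lists held 20048 to 21934 narrow peaks and the H3K27me3 lists 55060 to 72289 broad peaks. Each peak has a fold over the input of its replicate. The paper lists sequencing depth per sample, which was not used here. Of the 6 luminal prostate markers KLK2, KLK3, TMPRSS2, KRT8, KRT18 and HOXB13, all carried H3K4me3 in all 6 libraries of that mark and none carried H3K27me3. The immune markers PTPRC, CD3E and LYZ had no H3K4me3 peak in any library. RNA was not measured, so these files hold no check of the H19 level.

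Members with different roles were found in different chromatin states. H3K4me3 in all 6 libraries without any H3K27me3 peak was the state of 12 members (24% of the family, against 51.7% of all genes). These were FOXM1, FOXK1, FOXK2, FOXN2, FOXJ2 and FOXJ3, which are broadly expressed and tied to growth and metabolism, FOXO1 and FOXO3, the widely expressed FOXP1 and FOXP4, and FOXH1 and FOXN4. Both marks in all 6 libraries were found at 10 members (20%, against 8.21% of all genes), namely FOXB1, FOXC1, FOXD1, FOXD3, FOXF1, FOXF2, FOXI3, FOXL1, FOXP2 and FOXQ1. Apart from FOXP2, which acts in brain development, these genes act mostly in the embryo, in neural tissue, neural crest, mesoderm, gut mesenchyme, ear or skin.

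FOXI2 and FOXL3 carried H3K27me3 in all 6 libraries and H3K4me3 in none (4%, against 3.78% of all genes). No peak of either mark was found at 12 members (24%, against 18.4%). They include all 6 copies of the FOXD4-like group, FOXR1 and FOXR2, the thymic regulator FOXN1, FOXP3 of regulatory T cells, and FOXB2 and FOXI1. The FOXD4-like copies are nearly identical in sequence, and reads that map to several copies may be lost in alignment, so their empty windows are uncertain. The remaining 14 members (28%, against 17.9%) had peaks of a mark in part of the libraries.

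Among these, H3K4me3 was the more regular mark at FOXO4 and FOXO6 (6 libraries, with H3K27me3 in 1), FOXJ1, a master regulator of cilia (6 and 2), FOXA3 (6 and 3), FOXD2 (6 and 4) and FOXN3, a checkpoint factor (6 and 5). FOXO3B had H3K4me3 in 5 and the ovarian factor FOXL2 in 2, both without H3K27me3. FOXO3B is a near copy of FOXO3, so its reads are uncertain. H3K27me3 was the more regular mark at FOXA2 (6, with H3K4me3 in 3), FOXC2 (6, with H3K4me3 in 1) and the lens factor FOXE3 (5, with none). FOXE1, a thyroid factor, had H3K27me3 in 2 and FOXS1 in 1, without H3K4me3. By role, the state with H3K4me3 alone held 6 of 9 growth genes, 2 of 5 FOXO genes, 2 of 4 FOXP genes, 1 of 7 mesoderm genes and 1 of 13 neural, neural crest, ear and eye genes. Both marks in all 6 were found at 4 of the 7 mesoderm and 5 of the 13 neural, neural crest, ear and eye genes. The last group is broad and also holds FOXQ1 and FOXE1.

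**Figure D1:**
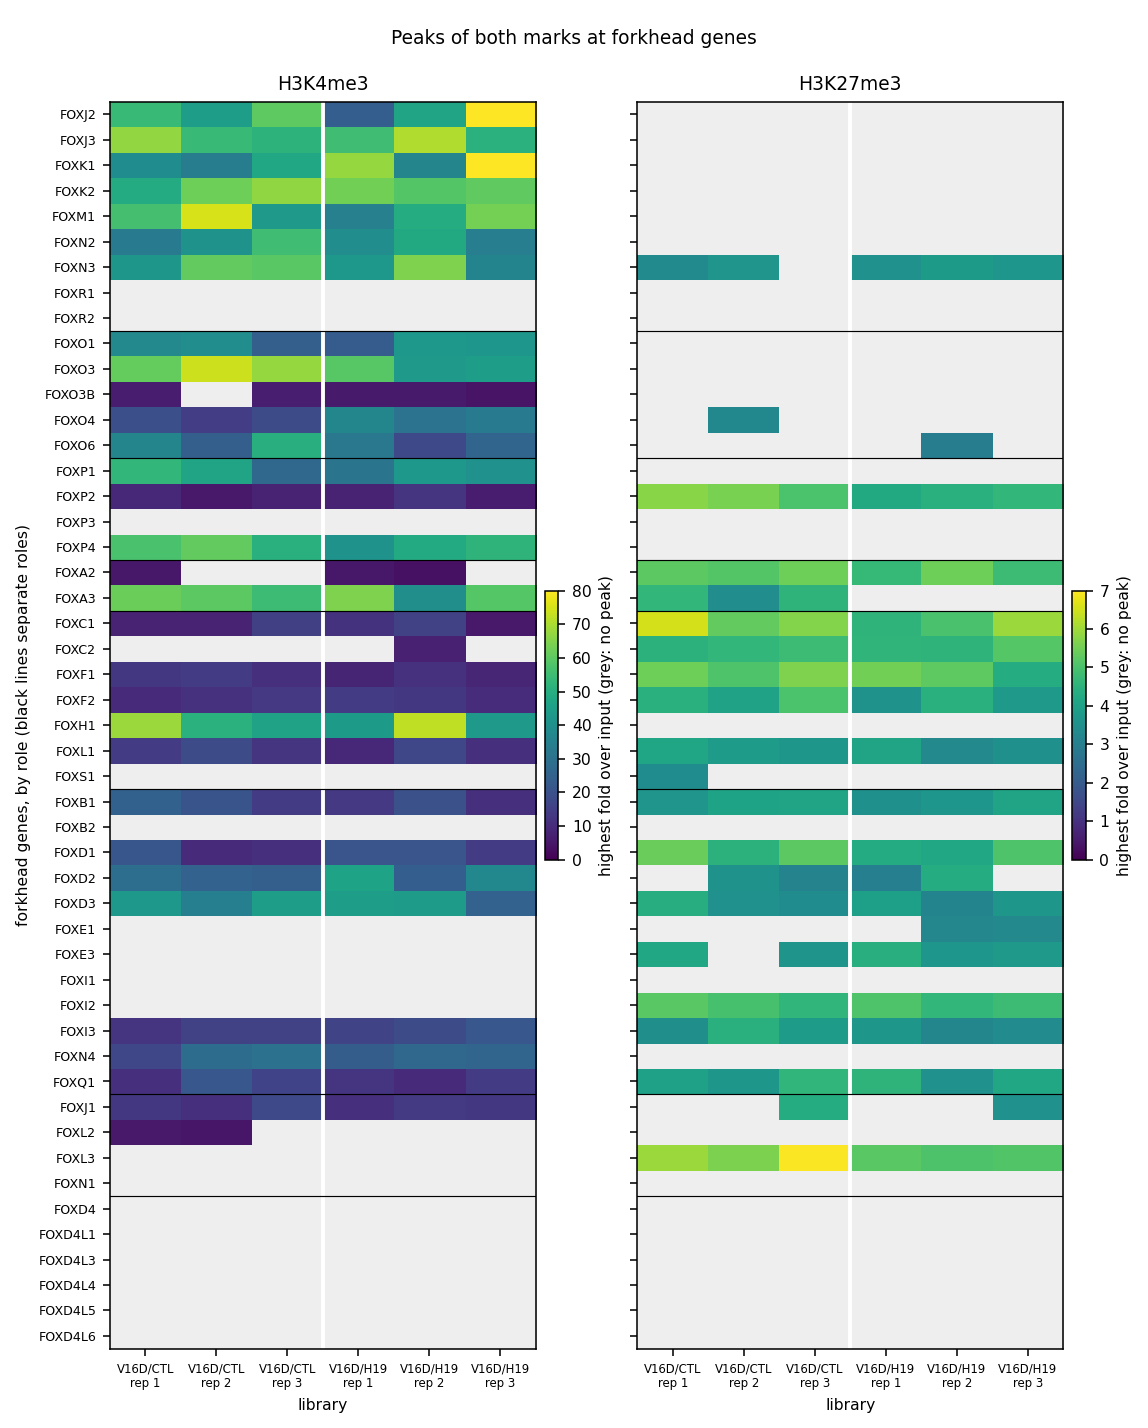
Highest fold over input of the H3K4me3 (left) and H3K27me3 (right) peaks at 49 forkhead genes, with 1 column per library and rows grouped by role; grey means no peak, and values above the top of a scale take its last colour. The genes tied to growth at the top carry H3K4me3 without H3K27me3, apart from FOXN3, FOXR1 and FOXR2, and the 6 FOXD4-like copies at the bottom are empty for both marks.

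Apart from FOXP2, which is 607439 bases long, members with both marks in all 6 libraries were short genes, and the median length of all 10 was 4.44 kb against 119 kb for all 1615 genes in that state. Members with H3K4me3 alone had a median length of 75.3 kb against 26.9 kb. A longer window has more room for a peak, and length was not adjusted for in these counts.

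To show what lies at the starts behind these states, the 250 bases upstream of 6 starts are given from RefSeq (GRCh38.p14), 5′ to 3′ on the strand of the gene, with each CpG in capitals. FOXA3 is shown for its H3K27me3 peaks in V16D/CTL alone, and FOXD1, FOXD2 and FOXQ1 because a deposited differential site lies at or beside their start. FOXO3, with strong H3K4me3, and FOXD4L1, with neither mark, were added as contrasts after their values were seen.
FOXA3 (chr19:45864076-45864325, plus strand): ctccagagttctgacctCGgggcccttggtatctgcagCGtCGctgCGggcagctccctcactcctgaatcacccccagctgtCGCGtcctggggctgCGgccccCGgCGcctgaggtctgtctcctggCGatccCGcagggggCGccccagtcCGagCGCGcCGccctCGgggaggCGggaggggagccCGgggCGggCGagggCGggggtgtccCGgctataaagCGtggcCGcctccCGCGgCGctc
FOXD1 (chr5:73448778-73449027, minus strand): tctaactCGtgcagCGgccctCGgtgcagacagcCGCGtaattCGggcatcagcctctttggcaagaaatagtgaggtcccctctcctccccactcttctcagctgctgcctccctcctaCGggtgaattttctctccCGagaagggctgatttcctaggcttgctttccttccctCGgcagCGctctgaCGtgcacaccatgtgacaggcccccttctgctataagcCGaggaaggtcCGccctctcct
FOXD2 (chr1:47437794-47438043, plus strand): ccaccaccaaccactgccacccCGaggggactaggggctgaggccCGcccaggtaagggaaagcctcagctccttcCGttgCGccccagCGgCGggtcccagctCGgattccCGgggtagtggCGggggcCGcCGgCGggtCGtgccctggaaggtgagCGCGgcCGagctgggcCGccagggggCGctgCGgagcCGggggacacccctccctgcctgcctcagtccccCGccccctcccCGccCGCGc
FOXQ1 (chr6:1311848-1312097, plus strand): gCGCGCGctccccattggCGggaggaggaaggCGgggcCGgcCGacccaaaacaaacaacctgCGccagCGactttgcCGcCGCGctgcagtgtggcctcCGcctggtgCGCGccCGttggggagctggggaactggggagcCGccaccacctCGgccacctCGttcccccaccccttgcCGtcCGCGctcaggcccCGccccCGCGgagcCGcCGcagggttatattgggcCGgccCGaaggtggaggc
FOXO3 (chr6:108559575-108559824, plus strand): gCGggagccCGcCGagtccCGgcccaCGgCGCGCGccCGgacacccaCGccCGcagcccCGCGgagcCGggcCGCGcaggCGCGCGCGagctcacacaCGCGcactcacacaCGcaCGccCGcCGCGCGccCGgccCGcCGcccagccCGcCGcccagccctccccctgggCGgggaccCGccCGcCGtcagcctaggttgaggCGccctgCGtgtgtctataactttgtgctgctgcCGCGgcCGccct
FOXD4L1 (chr2:113498415-113498664, plus strand): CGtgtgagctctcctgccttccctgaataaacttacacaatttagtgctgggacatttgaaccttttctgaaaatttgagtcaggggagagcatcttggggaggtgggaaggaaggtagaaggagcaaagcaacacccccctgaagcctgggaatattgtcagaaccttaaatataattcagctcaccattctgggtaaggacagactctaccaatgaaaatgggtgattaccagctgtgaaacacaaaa

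These stretches held 28 CpGs at FOXA3, 13 at FOXD1, 24 at FOXD2, 29 at FOXQ1, 42 at FOXO3 and 1 at FOXD4L1. Of the 50 members, 39 had a promoter in the RefSeq table, with a median of 20 CpGs against 17 over all 15843 promoters matched. The 9 members with H3K4me3 alone had a median of 31 CpGs (all genes in that state, 21), and the 8 with both marks had 22 (all genes, 21). The 12 members without a peak had 9.5 (all genes, 4). For FOXP2, among the 8 with both marks, the listed promoter lies 328488 bases from the start used for its window and held 0 CpGs. The letters GTAAACA, the core that forkhead proteins bind, were searched on both strands of the same 250 bases and occurred at 0 of the 39 members and at 2.25% of all promoters.

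H3K4me3 was strong at the members tied to growth and weak at most developmental ones. Levels here are the highest fold over input in a gene's window, a ratio that can be set side by side between genes, as mean ± SD over the 6 libraries. FOXK2, a regulator of metabolism and autophagy, led with 60.1 ± 5.91. It was followed by FOXJ3 (58.3 ± 8.29) and FOXO3 (58.3 ± 12.1), the latter a stress and longevity factor. From FOXK2 down to FOXN3 (51.0), the 10 highest members differed from their neighbours among these 10 by less than their own SD.

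Lower in the order, FOXN2 stood at 41.8 ± 8.64, FOXD3 at 39.3 ± 7.96 and FOXO1 at 34.7 ± 8.79. FOXD3, a neural crest factor, had the highest H3K4me3 of the members with both marks. The lowest were FOXF1 (11.0 ± 2.22), FOXC1 (10.7 ± 4.14) and FOXP2 (7.98 ± 2.28), which all carried H3K27me3 as well. The median over the 10 members with both marks was 13.9, against 51.8 over the 12 with H3K4me3 alone. All genes gave the same order, 21.6 against 51.2. By role the medians were 51.8 for growth genes, 32.9 for FOXO genes, 17.3 for neural, neural crest, ear and eye genes and 11.9 for mesoderm genes, beside 48.8 over all 13359 genes.

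**Figure D2:**
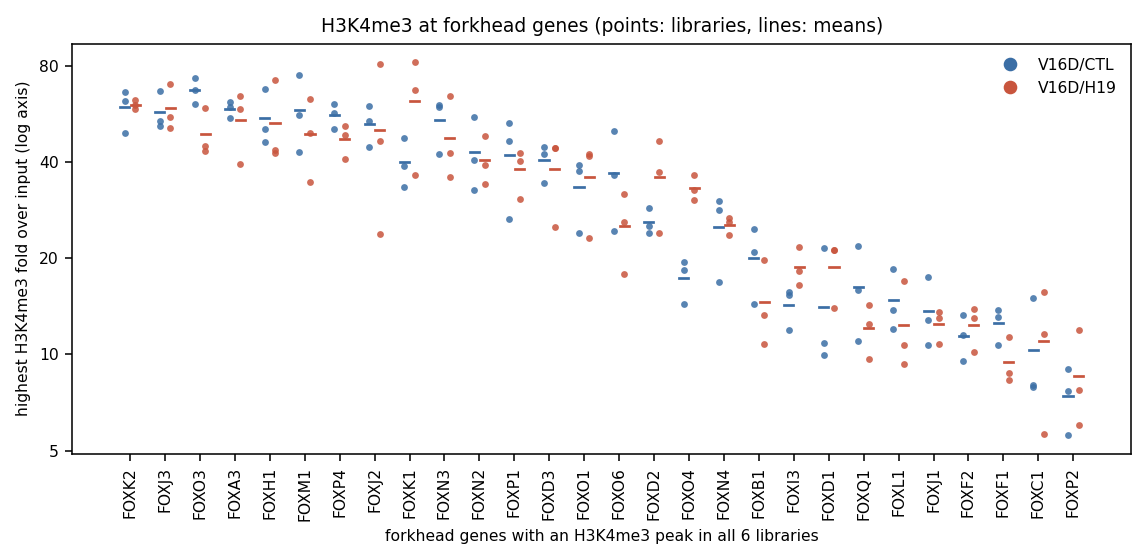
Highest H3K4me3 fold over input (log axis) of the 28 forkhead genes with a peak in all 6 libraries, ordered by mean. Points are libraries and lines are group means; the groups do not overlap at FOXO4 and FOXI3 (V16D/H19 higher) or at FOXO3 (V16D/H19 lower).

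Not every peak lay at the forkhead start. Among the 28 members with H3K4me3 in all 6 libraries, the strongest peak contained the annotated start in every library at 16, against 70.4% of the 13359 genes. At FOXA3 the strongest peak lay 0.629 to 1.07 kb from the FOXA3 start and contained the start of the neighbouring SYMPK in 6 of 6 libraries. At FOXH1, a partner of SMAD proteins in early mesoderm, it lay 1.17 to 2.31 kb away and held the start of PPP1R16A in 5 libraries. At FOXN4, a retinal factor, it held the start of MYO1H in 5 libraries and ended 0.085 to 0.215 kb from the FOXN4 start. The FOXM1 peak contained the starts of both FOXM1 and RHNO1 in all 6. At FOXN3 the strongest peak lay 201 to 202 kb inside the gene. The H3K4me3 of FOXA3, FOXH1, FOXN4 and FOXM1 therefore cannot be told apart from that of their neighbours.

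H3K27me3 levels, from broad peaks, varied much less between members than H3K4me3 levels, from narrow peaks. The folds of the marks were not set on a common scale. The highest fold per window ranged from 3.68 at FOXI3 to 5.64 at FOXL3, a relative of FOXL2, over the 14 members with H3K27me3 in all 6 libraries. Behind FOXL3 (5.64 ± 0.73) came FOXC1 (5.51 ± 0.713), FOXF1 (5.22 ± 0.483) and FOXA2 (5.12 ± 0.32), and each differed from the next by less than its SD. The members' median was 4.74, against 4.21 over 2725 genes. FOXA2, a pioneer factor of endoderm, carried H3K4me3 in only 3 libraries, at a fold of 3.68 to 5.11.

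These H3K27me3 peaks were weak by their deposited significance. Raising the threshold to a −log10 q of at least 5 left 6 members with a peak in any library. FOXL3 kept it in 3 of 3 libraries of both groups, FOXC1 in 3 of 3 V16D/CTL and 1 of 3 V16D/H19, FOXF1 in 2 and 1, FOXA2 in 1 and 1, and FOXD1 and FOXP2 in 2 and 0. The count per library was 4.33 ± 1.15 members in V16D/CTL against 2 ± 0 in V16D/H19 (SD, n = 3), while over all genes it was 452 ± 60.1 and 120 ± 24.5.

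Where both marks fell on the same bases, the overlap was present in all 6 replicates at 7 members (652 genes in all), FOXC1, FOXD1, FOXD3, FOXF1, FOXF2, FOXP2 and FOXQ1. It was longest at FOXD1, a factor of kidney stroma and forebrain, with 1943, 1842 and 2393 bases in V16D/CTL against 2351, 2059 and 2348 in V16D/H19. FOXL1 and FOXB1 carried both marks in all 6 libraries but on overlapping bases in only 1 each. Per library, 9.67 ± 1.53 members had overlapping marks in V16D/CTL against 9.33 ± 1.15 in V16D/H19, a difference smaller than the SD. These were 19.3% and 18.7% of members, beside 6.75% and 6.21% of all genes. Only FOXD1 overlapped by at least 500 bases in all 6, and none of the 7 remained at the stricter threshold.

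Between V16D/CTL and V16D/H19, the number of members carrying a mark differed by less than the SD. H3K4me3 was found at 30.3 ± 1.53 members in V16D/CTL against 30.7 ± 1.53 in V16D/H19, and H3K27me3 at 18 ± 0 and 18 ± 1 (SD, n = 3). These were 60.7% and 61.3% of members for H3K4me3, and 36% in both groups for H3K27me3. Over all genes the shares were 69.8% and 70.3% for H3K4me3 and 20.4% and 19.5% for H3K27me3. No member was called for a difference between the groups by limma in the strength or the covered length of either mark. For strength, 28 members were tested among 13359 genes for H3K4me3 (0.015% of genes called) and 14 among 2725 for H3K27me3 (0% called). For covered length, 0.404% and 7.78% of genes were called. An exact permutation test of 3 against 3 libraries could not give a p below 0.1 for any gene, so the tests below are those of limma across all genes, with each library centred on its median.

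The largest difference in H3K4me3 strength was at FOXO4, an X-linked FOXO factor that AKT holds in the cytoplasm. Its fold over input was 19.4, 14.4 and 18.4 in V16D/CTL against 36.6, 30.6 and 32.9 in V16D/H19. All V16D/H19 libraries were above all V16D/CTL libraries, and the means were 17.4 ± 2.68 and 33.4 ± 3.07. The centred log2 difference was 0.89 (SE 0.31), which did not pass after adjustment (limma, adjusted p = 0.704). It ranged from 0.76 to 0.99 when any library was left out. The peak contained the FOXO4 start in all 6 libraries, and its length overlapped between groups, 1.71 ± 0.0942 kb in V16D/CTL against 1.81 ± 0.0501 kb in V16D/H19.

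FOXO3 went the other way, with a fold of 61.1, 73.8 and 67.2 in V16D/CTL against 59.3, 43.3 and 45.0 in V16D/H19. Its groups did not overlap either, and the log2 difference was -0.52 (SE 0.26, limma adjusted p = 0.789). FOXO6, a FOXO factor of brain and liver, had 36.5, 24.3 and 50.2 against 31.9, 17.8 and 26.0, with overlapping groups and a difference of -0.59 (SE 0.34). FOXI3, an ear and tooth factor, had 11.9, 15.4 and 15.7 against 16.5, 18.2 and 21.7, again without overlap. Non-overlap toward higher V16D/H19 values was found at 7.29% of genes and toward lower values at 3.87%, so 2 and 1 of 28 members are close to the background.

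FOXB1, a regulator of the hindbrain and midbrain, and FOXK1, a regulator of glycolysis and autophagy, complete the 5 largest. FOXB1 had 24.7, 20.9 and 14.4 against 13.3, 19.7 and 10.8 (log2 difference -0.52, SE 0.33), with overlap. FOXK1 had 39.0, 33.6 and 47.8 against 67.4, 36.5 and 82.2 (0.51, SE 0.32), with 2 of 3 V16D/H19 libraries above all V16D/CTL libraries. Of the 5, FOXO6, FOXK1 and FOXB1 depended most on single libraries. When any library was left out, FOXO6 ranged from -0.86 (without V16D/CTL replicate 2) to -0.30 (without V16D/CTL replicate 3), FOXK1 from 0.24 to 0.89 (without V16D/H19 replicate 3 and replicate 2) and FOXB1 from -0.72 to -0.35 (without V16D/H19 replicate 2 and replicate 3). The median centred difference over the 28 members was -0.15, against -0.01 over all genes tested. FOXM1 had 56.3, 75.3 and 43.0 against 34.8, 49.5 and 63.4, and the groups overlapped.

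**Figure D3:**
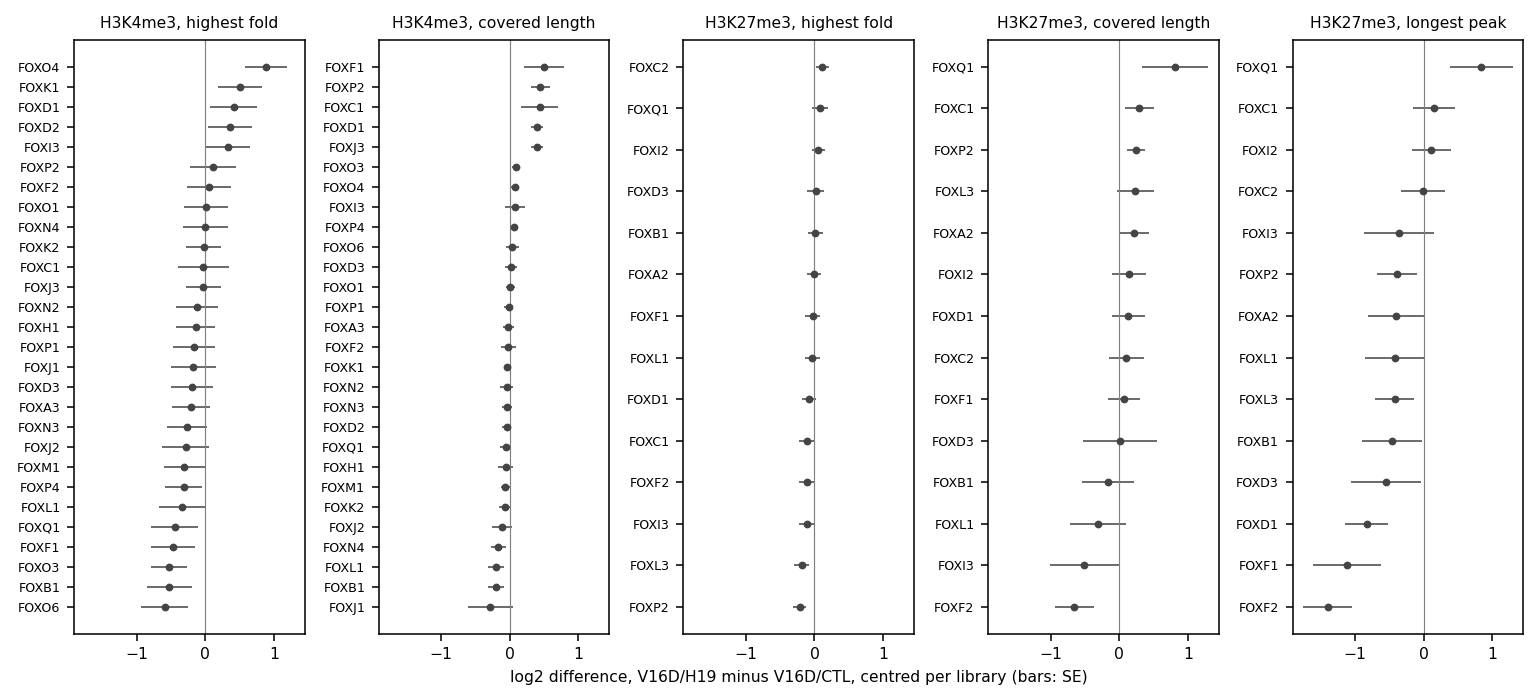
Log2 difference between V16D/H19 and V16D/CTL at each forkhead gene tested, centred per library, for the highest fold and covered length of both marks and for the longest H3K27me3 peak. Points are limma estimates and bars are 1 SE; none passed an adjusted p of 0.05 with centring.

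The length covered by H3K4me3 lay apart between the groups at a few members, none past the threshold. FOXD1 had 1.94, 2.28 and 2.39 kb covered in V16D/CTL against 2.98, 2.91 and 2.86 kb in V16D/H19, without overlap. Its centred log2 difference of 0.40 (SE 0.08) was the closest of the family to the threshold (limma, adjusted p = 0.0958). Counted only within 1 kb of the start, the difference was -0.0034. That count leaves out coverage farther than 1 kb from the start, so it cannot show length gained there. FOXJ3 had 3.68, 2.75 and 3.05 kb against 4.34, 4.40 and 3.74 kb (0.39, SE 0.09, limma adjusted p = 0.126). FOXP2 had 0.681, 0.633 and 0.692 kb against 0.869, 1.10 and 0.804 kb (0.45, SE 0.14, limma adjusted p = 0.276).

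With FOXO3 (5.85 to 6.32 kb against 6.34 to 6.54 kb), 4 of 28 members were longer in every V16D/H19 library, where 8.13% of all genes were. FOXO3 thus had lower folds and slightly longer coverage in V16D/H19, neither past the threshold. FOXC1 and FOXF1 had differences of 0.43 (SE 0.27) and 0.50 (SE 0.29) with overlapping groups. Leaving out a library moved them widely, to 0.10 for FOXC1 without V16D/CTL replicate 1 and to 0.16 for FOXF1 without V16D/H19 replicate 2. The median over the members was -0.02, beside -0.000867 over all genes.

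The longest H3K4me3 peak, a measure added after the data were seen, was longer in every V16D/H19 library at FOXD1, FOXO1, FOXO3 and FOXP2, 4 of 28 members where 7.36% of genes were, and shorter at none, where 5.93% were. FOXP2 stood out with 0.403, 0.325 and 0.366 kb in V16D/CTL beside 0.869, 1.10 and 0.552 kb in V16D/H19. Its centred log2 difference of 1.15 (SE 0.25) had the lowest p of the members for this measure in limma. It did not pass after adjustment (limma adjusted p = 0.285, 0.15% of genes called). The FOXP2 window held 2, 2 and 2 H3K4me3 peaks in V16D/CTL beside 1, 1 and 2 in V16D/H19, at highest folds of 5.60 to 11.9. Whether short peaks were called as a single longer one was not tested.

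A call in 1 group alone was found at FOXA3. FOXA3 is a liver and gut relative of FOXA2. H3K27me3 covered 0.415, 1.61 and 1.13 kb of its window in V16D/CTL, at a highest fold of 4.64, 3.44 and 4.54, and no peak was present in any V16D/H19 library. The peak contained the FOXA3 start in all 3 V16D/CTL libraries, and it lies in the window of the neighbour SYMPK too. Of the 5521 genes with an H3K27me3 peak in any library, 1.07% were called in V16D/CTL alone and 0.362% in V16D/H19 alone. FOXA3 was the only forkhead gene among 23 with such a pattern, and it kept it in lists of equal length and within 1 kb of the start. Its −log10 q was 1.93 to 3.60, so it had no peak in either group at the stricter threshold. No such gene was a member for H3K4me3 (0.0702% and 0.288% of genes).

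H3K27me3 covered less of the gene windows in V16D/H19 over all genes tested, by the library medians. The library medians over all genes tested differed by -0.34 on the log2 scale, and the limma differences here are relative to that shift. Without centring 13 of the 14 members had a lower covered length in V16D/H19, and with centring 4 of 14, where 77.3% and 47.9% of all genes had. Covered length was lower without overlap at FOXF2, FOXC2, FOXD1 and FOXL3, 4 of 14 members, where 26.1% of all genes were, and higher at none, where 2.5% were. FOXF2, a factor of gut and craniofacial mesenchyme, had 5.64, 4.64 and 6.31 kb in V16D/CTL against 2.46, 2.44 and 3.44 kb in V16D/H19. Its centred log2 difference was -0.65 (SE 0.29, limma adjusted p = 0.192). FOXC2, a lymphatic and mesodermal factor, had 4.71, 4.67 and 4.81 kb against 3.85, 4.20 and 3.97 kb. Relative to the shift, however, FOXC2, FOXD1 and FOXL3 had differences of 0.10 (SE 0.26), 0.14 (SE 0.24) and 0.24 (SE 0.27), so their decrease was smaller than the shift of the medians, by less than 1 SE.

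The window of FOXD1 was covered throughout in 2 of the V16D/CTL libraries, and that of FOXL3 in V16D/CTL replicate 2. The FOXF1 window was full in V16D/CTL replicate 2 and V16D/H19 replicate 3, and the FOXA2 window in V16D/CTL replicate 3. Covered length could not rise there, which limits the differences at these genes. Among all genes, 212 were called with centring, 140 of them higher in V16D/H19, and 67 without centring, 4 of them higher. FOXQ1, which acts in hair follicle and epithelium, had 0.612, 2.29 and 2.25 kb against 2.28, 1.94 and 1.91 kb, and its difference of 0.82 (SE 0.48) turned on V16D/CTL replicate 1. Without that library it was 0.33. FOXI3 and FOXL1 had differences of -0.51 (SE 0.50) and -0.31 (SE 0.41), which moved to -0.17 without V16D/CTL replicate 3 and to -0.06 without V16D/CTL replicate 2. FOXC1 had 0.29 (SE 0.21), which turned to -0.05 without centring.

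Because short windows fill up, the full length of the longest H3K27me3 peak touching a window was added after the data were seen. At FOXD1 it was 8.74, 5.02 and 8.94 kb in V16D/CTL against 2.50, 3.34 and 3.65 kb in V16D/H19. At FOXF2 it was 3.15, 3.55 and 3.57 kb against 0.86, 1.02 and 1.08 kb. The number of peaks in the FOXF2 window was 5, 4 and 5 in V16D/CTL beside 4, 3 and 5 in V16D/H19, while the FOXD1 window held 1, 2 and 1 against 3, 3 and 2. FOXL3 (7.80, 12.4 and 9.47 kb against 4.27, 6.55 and 5.98 kb) and FOXP2 (5.01, 5.90 and 8.59 kb against 4.20, 3.43 and 3.45 kb) also had no overlap. These were 4 of 14 members, where 20.1% of the genes were shorter without overlap and 1.5% longer.

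In limma with centring no gene was called for the longest H3K27me3 peak (0% of 2725, with 288 genes at an unadjusted p under 0.05). FOXF2 had a log2 difference of -1.40 (SE 0.35, adjusted p = 0.164), and without centring -1.80 (adjusted p = 0.0443), when 17 genes were called, all lower. FOXD1 had -0.83 (SE 0.31, adjusted p = 0.339) by limma. FOXF1 had -1.12 (SE 0.49) on values of 8.90, 24.4 and 20.8 kb against 5.49, 2.20 and 16 kb, which overlap. It moved to -0.40 without V16D/H19 replicate 2 and to -1.84 without replicate 3 of that group. The median over the 14 members was -0.41, against 0.02 over all genes, and 11 of 14 members were lower where 47.7% of genes were. Without centring the medians were -0.81 and -0.37.

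**Figure D4:**
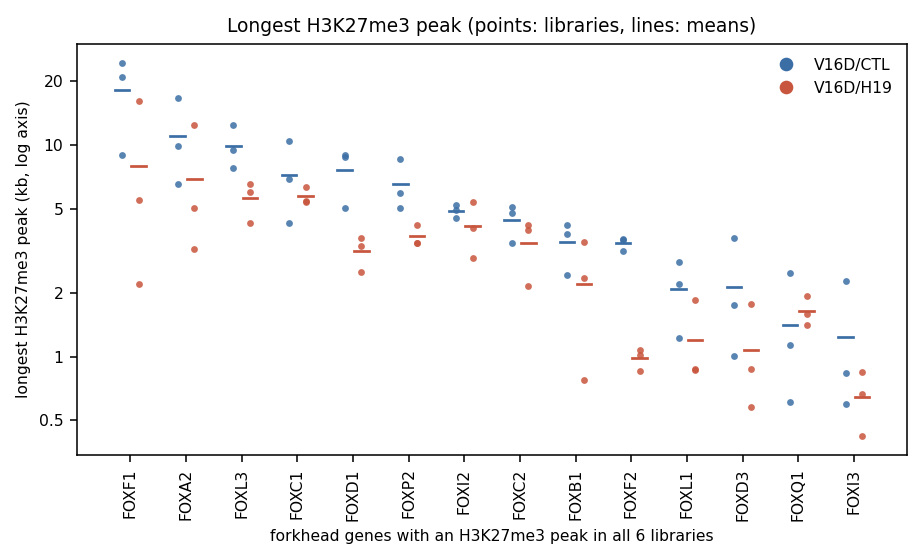
Length of the longest H3K27me3 peak (log axis, kb) touching each of the 14 forkhead genes with the mark in all 6 libraries. Points are libraries and lines are group means; the groups do not overlap at FOXL3, FOXD1, FOXP2 and FOXF2, where all V16D/H19 values are shorter.

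The library medians of H3K27me3 strength differed by -0.08 on the log2 scale, lower in V16D/H19. Without centring 13 of the 14 members were lower, and with centring 9 of 14, where 74.2% and 52.0% of all genes were. FOXP2 had a highest fold of 5.74, 5.60 and 5.02 in V16D/CTL against 4.26, 4.46 and 4.64 in V16D/H19, without overlap. Its centred log2 difference was -0.21 (SE 0.10, limma adjusted p = 0.523), and without centring -0.29 (limma adjusted p = 0.18). FOXL3 had 5.94, 5.61 and 6.95 against 5.20, 5.04 and 5.09 (-0.19, SE 0.11), also without overlap. Lower values without overlap were found at 17.9% of genes and at 2 of 14 members, and higher ones at 2.35% and at no member. The FOXP2 window spans 610439 bases and held 42 to 53 H3K27me3 peaks per library, and the strongest of them sets its value. FOXC2, FOXF2 and FOXI3 had differences of 0.11 (SE 0.09), -0.11 (SE 0.11) and -0.11 (SE 0.12). The members' median was -0.03, against -0.01 over all genes.

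Forkhead symbols also appear in the deposited tables of differential sites, made with DiffBind and annotated with ChIPseeker. Of the genes with an H3K27me3 peak in at least 2 libraries or a row of the table, 13.8% of 4609 were listed, as were 4 of 20 members. For H3K4me3, 9.9% of 14054 genes and 4 of 32 members were listed. All 9 sites at members had a lower concentration, the deposited log2 of the mean normalised read count of a group, in V16D/H19. So had 91.5% of the 1140 H3K27me3 sites and 76.0% of the 1857 H3K4me3 sites. The concentrations are group means and carry no SD, and the tables hold sites the authors had selected for a difference.

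The H3K27me3 sites were the widest. At FOXF1, a lung and gut mesenchyme factor, the site chr16:86485786-86526484 spanned 40.7 kb and had concentrations of 9.89 in V16D/CTL against 9.56 in V16D/H19. Weighted by length, the mean fold of its peaks was 4.95, 4.73 and 5.17 in V16D/CTL against 4.36, 4.30 and 4.20 in V16D/H19, without overlap. At FOXD1 the site chr5:73432483-73454392 had 9.15 and 8.58. Peaks covered 18.7, 17.0 and 17.1 kb of its 21.9 kb in V16D/CTL against 11.7, 12.1 and 14.3 kb in V16D/H19. All V16D/H19 libraries were again lower, and the mean fold was 4.42 ± 0.155 and 3.88 ± 0.277 (SD, n = 3).

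FOXD2, a kidney and craniofacial factor, had 2 sites. The site chr1:47438055-47452690, which begins within the gene, had 7.69 and 7.23, and peaks covered 5.24, 5.29 and 6.25 kb against 4.93, 4.04 and 3.58 kb, without overlap. The second, chr1:47708110-47717626, lies 272093 bases from the start and had 7.65 and 7.14. The FOXL1 site, chr16:86629025-86633839, lies 50519 bases from its start, outside the window. It had 5.05 and 3.78, and only V16D/CTL replicates 2 and 3 had a peak there, over 1.44 and 1.60 kb.

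The H3K4me3 sites were at FOXM1, FOXP1, FOXB1 and FOXQ1. The FOXM1 site, chr12:2875820-2878766, contains its start and that of RHNO1, and had 10.01 and 9.74. The highest fold there overlapped between groups, as given above. FOXP1, a regulator of B cells, heart and lung, was listed at chr3:71128233-71131501, inside its 629 kb gene, with 8.02 and 7.45. The peak there had a fold of 23.7, 14.1 and 26.7 against 22.8, 7.58 and 19.8. FOXB1 had 7.60 and 6.99 at chr15:60005647-60007469, and FOXQ1 had 7.46 and 6.99 at chr6:1311111-1314219. At FOXQ1 the longest H3K4me3 peak was 2.07, 2.42 and 2.67 kb against 1.66, 2.15 and 1.73 kb, with overlap. So at none of the 4 were the peak folds of the groups apart.

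Several of the marked members are neighbours. On chromosome 6, FOXQ1 and FOXF2 lie 74.8 kb apart and FOXF2 and FOXC1 214 kb apart. On chromosome 16 the gaps are 51.4 kb from FOXF1 to FOXC2 and 8.82 kb from FOXC2 to FOXL1, and FOXE3 lies 20.0 kb from FOXD2 on chromosome 1. Over 360 kb around the chromosome 6 genes, H3K27me3 peaks covered 39.1, 44.5 and 47.5 kb in V16D/CTL against 31.3, 32.6 and 34.3 kb in V16D/H19, without overlap. Their length-weighted mean fold was 4.72, 4.60 and 4.66 against 3.86, 4.22 and 4.66, which overlaps through V16D/H19 replicate 3. Over 140 kb around the chromosome 16 genes the covered length was 41.7, 51.1 and 46.9 kb against 39.8, 37.4 and 43.4 kb, with overlap, and the mean fold 4.68, 4.40 and 4.75 against 4.24, 4.18 and 4.18, without. The number of peaks per library was 20 to 28 in the first span and 19 to 26 in the second. Other spans of this size were not compared. By gene, the library medians of H3K27me3 covered length differed by -0.34 on the log2 scale. Without overlap, 26.1% of genes were lower in covered length and 17.9% in highest fold.

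**Figure D5:**
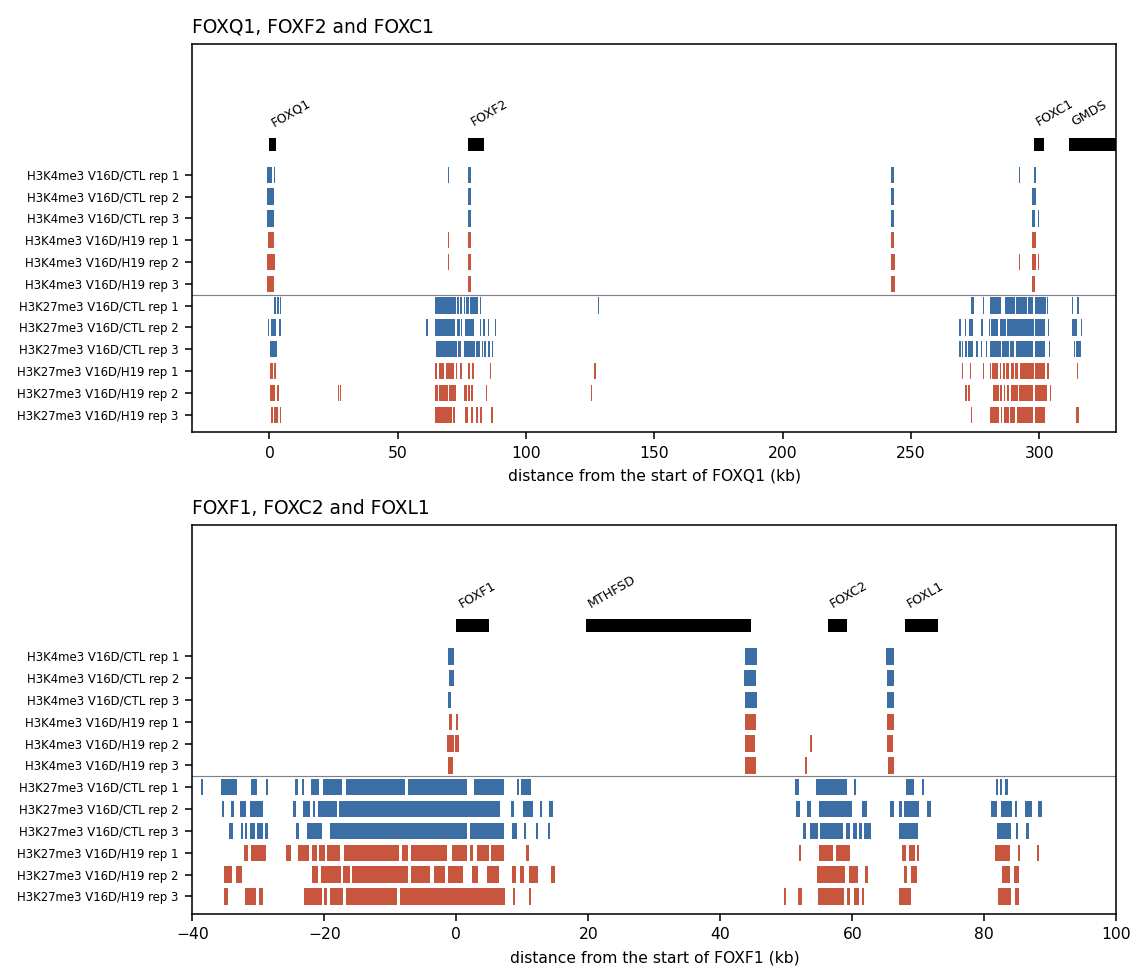
H3K4me3 and H3K27me3 peaks (bars) in each library across the FOXQ1, FOXF2 and FOXC1 neighbourhood (top) and the FOXF1, FOXC2 and FOXL1 neighbourhood (bottom), by distance in kb from the start of FOXQ1 or FOXF1, with genes as black bars. V16D/CTL is blue and V16D/H19 red; H3K27me3 forms domains around each gene, and at FOXF2 the V16D/H19 peaks are short.

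Genes that act with forkhead factors carried H3K4me3 throughout. All 12 listed FOXO targets, among them CDKN1B, a cell cycle inhibitor, and BCL2L11, which promotes apoptosis, carried H3K4me3 in all 6 libraries and no H3K27me3. So did all 11 FOXM1 targets, such as the mitotic genes PLK1, CCNB1 and AURKB. All 7 regulators of FOXO listed, which include the kinase AKT1 and the deacetylase SIRT1, carried H3K4me3 in all 6 as well. SGK1, an AKT-related kinase, also carried H3K27me3 in 3 libraries.

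None of these genes was called by limma for H3K4me3 in either direction. The median log2 difference in H3K4me3 strength was -0.04 for the FOXO targets, -0.26 for the FOXM1 targets and -0.09 for the regulators, beside -0.01 over all genes. Of the 30 genes, 2 were higher without overlap in V16D/H19 (7.29% of all genes), the FOXO targets GADD45A and SESN3, and 2 were lower (3.87%), the FOXO target PIK3IP1 and PLK1. PLK1 had a fold of 73.0, 43.2 and 51.2 in V16D/CTL against 24.5, 41.7 and 42.9 in V16D/H19. GADD45A, a stress response gene, had 49.0, 23.8 and 32.5 against 58.7, 62.5 and 55.9, and PIK3IP1, an inhibitor of PI3K, had 29.3, 30.6 and 36.0 against 27.5, 26.4 and 28.9. Among the luminal markers, KLK2 had less H3K4me3 covered length in V16D/H19 (log2 difference -0.45, SE 0.07, limma adjusted p = 0.0324), the only 1 of the 6 called. TMPRSS2 had a difference of 0.36 (SE 0.09, limma adjusted p = 0.134), and the median of the 6 was -0.01.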

How the data were processed

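ChIP-seq libraries for H3K4me3 and H3K27me3 from V16D/CTL and V16D/H19 cells (3 replicates a group and mark) were sequenced with 75 bp single-end reads. Per the labels and the study's methods, the authors ran MACS2 on every library with the matching input as control (narrow for H3K4me3, broad for H3K27me3) on hg38. For every peak the deposited lists hold the enrichment over input as a linear ratio, along with −log10 values of p and q. The deposited tables of differential sites (DiffBind, ChIPseeker) give log2 concentrations per group, which were used. Their columns of fold, p-value and FDR hold the authors' comparison and were not used. The versions of the tools are not given in the sources used here.

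Groups and replicate numbers came from the sample titles. Genes were protein-coding RefSeq genes (GRCh38.p14). The strand came from the RefSeq promoter table or, by symbol, from GENCODE, for 19675 of 20056 genes (98.1%). Per gene and library the highest fold, covered length and longest peak were computed (Python 3.11.15, pandas 2.3.3). Log2 values of genes with a peak in all 6 libraries were centred on each library's median and compared with limma 3.58.1 (R 4.3.3, moderated by trend), with Benjamini-Hochberg adjustment over all genes tested and a threshold of 0.05. A peak missing from a list is not a measured 0, and peak lists depend on depth, which was not used here.

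Named were members with an adjusted p under 0.05, a row in a table of differential sites or peaks in 3 of 3 libraries of 1 group alone, the 5 with the highest mean fold and the 5 with the largest difference, and the FOXD4-like copies as a set. Others named were chosen after their values were seen. Members, lists and measures were chosen with earlier results of these data known. Alternatives were other centring, filters, thresholds, list lengths, windows, a replicate block and leaving out each library. Results for 1 member and 1 further gene are not reported here. The fitting code was tested on simulated data.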

Additional observations from a re-analysis of the deposited data

How the results depend on the processing

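Of 329 differences at single genes recomputed under the alternatives, 325 kept their direction and side of the threshold. The exceptions were FOXD1 H3K4me3 covered length within 1 kb of the start (-0.0034), FOXC1 H3K27me3 covered length without centring (-0.0508) and within 1 kb of the start (-0.0863), and the longest H3K27me3 peak of FOXF2, called without centring (-1.80). Coverage farther than 1 kb from the start is not counted in that setting, which limits what it can show. The cause was not tested. Counts below are of genes called by limma over all genes.

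Without centring, 0 genes were called for H3K4me3 fold (2 with centring), 29 for H3K4me3 covered length (54), 2 for H3K27me3 fold (0), 67 for H3K27me3 covered length (212) and 17 for the longest H3K27me3 peak (0), of which 1 was a forkhead gene, FOXF2. H3K4me3 fold gave 1 with a peak in at least 3 of 6 libraries, 0 within 1 kb of the start and 1 with the length-weighted mean fold. H3K4me3 covered length gave 4 within 1 kb and 20 by longest peak. H3K27me3 covered length gave 0 at the stricter threshold, where 20 genes could be tested, and 0 by longest peak. Within 1 kb of the start it called 1 forkhead gene, FOXL3. The FOXL3 peak contained its start in all 6 libraries and was 4.27 to 12.4 kb long, longer than the stretch counted. Coverage there may thus have been near its limit, and the call is relative to the shift of the library medians. Whether it reflects more than this limit was not tested. Over its whole window FOXL3 had a difference of 0.24 (limma adjusted p = 0.705). The number of genes with peaks in V16D/CTL alone was 16 for H3K4me3 in lists of equal length and 5 within 1 kb of the start (10 as reported). For H3K27me3, V16D/H19 alone gave 11 within 1 kb and 0 at the stricter threshold (20 as reported), where FOXA3 was lost as well, leaving 0 forkhead genes. Both marks overlapped in all replicates at 652 genes, at 6 with 0 forkhead genes at the stricter threshold, and at 152 with 1 forkhead gene, FOXD1, when 500 bases were required.

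Leaving out each library in turn gave 0 to 0 genes for H3K4me3 fold, 11 to 52 for H3K4me3 covered length, 0 to 2 for H3K27me3 fold, 120 to 226 for H3K27me3 covered length, 11 to 44 for the longest H3K4me3 peak and 0 to 1 for the longest H3K27me3 peak. Peaks in 1 group alone then ranged from 13 to 29 (V16D/CTL) and 48 to 92 (V16D/H19) genes for H3K4me3, and from 92 to 136 and 41 to 56 for H3K27me3. FOXA3 kept its pattern in each case, and FOXL2 (H3K4me3, V16D/CTL alone) and FOXE1 (H3K27me3, V16D/H19 alone) joined in some, so forkhead counts ranged from 0 to 1. Deviations of same-numbered samples from their group means had correlations from -0.03 to 0.04 over the 12 same-numbered pairs. Such small values cannot show whether the replicates were processed in pairs, so a fit with a replicate block is given as well. With a replicate block, 2 genes were called for H3K4me3 fold, 28 for H3K4me3 covered length, 0 for the longest H3K4me3 peak, 0 for H3K27me3 fold and 200 for H3K27me3 covered length. Read depth was not used here, so a weak peak missing from a library cannot be told apart from one below detection.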
